A study of Rattus norvegicus with 12 samples.

Results

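NONRATT009033.2 is a noncoding transcript listed at the rat Kif26b locus, and it was measured in the lumbosacral spinal cord of fetal Wistar rats at embryonic day 19. It was 1 of 22591 transcripts in a table of long noncoding RNA (lncRNA). It was picked by its identifier, because earlier results of these same data had shown its level to differ between fetuses with anorectal malformations (ARM) and normal fetuses. The 7 other transcripts within 500 kb on chromosome 13 were taken by position alone. Libraries came from 3 samples of fetuses with ARM induced by ethylenethiourea (ETU), a teratogen that suppresses the thyroid, and from 3 samples of normal fetuses with no ETU in their labels. The count columns taken as normal are headed N9, where the labels of the normal samples read N19, so their match to the normal group rests on the letter N and on the numbers of columns and samples. By the labels every ARM sample was ETU-induced, so the exposure and the malformation cannot be told apart. Each was made from total RNA of bulk cord tissue, so more cells with a transcript and more RNA per cell cannot be told apart. Nothing in the labels says whether samples came from separate animals or litters, and p-values therefore measure only the spread between these samples.

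Kif26b encodes an atypical kinesin. Most kinesins carry cargo along microtubules, whereas in mouse Kif26b is known for roles in cell adhesion and morphogenesis. In the mouse embryonic kidney it is a target of the transcription factor Sall1 and is needed for mesenchyme to gather around the ureteric bud. In mouse cells it also acts downstream of the noncanonical Wnt5a-Ror pathway, a branch of Wnt signalling tied to planar cell polarity. Many noncoding transcripts arise inside or beside protein-coding genes, and a shared locus name does not make such a transcript part of the gene's messenger RNA.

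The table placed NONRATT009033.2 at chromosome 13, 96774894 to 96776106, on a rat assembly that no label or header names. Its locus name is RGD1560022, which RefSeq (GRCr8) lists as an older symbol of Kif26b. The transcript is 1213 bases long and spans 1213 bases, so it forms 1 uninterrupted block, against a median length of 677 bases over the table. Its AceView name marks it as unspliced, as for 9369 transcripts (41.5%) of the table, of which 9198 also form 1 block. No other transcript of the table overlaps it. On the RefSeq gene order Kif26b lies after Hnrnpu and Efcab2 and before Smyd3 and Tfb2m. Transcripts named for Hnrnpu and Efcab2 also lie below it in the table's coordinates. The table gives no strand, and the strand setting of the counting is not given in the sources used here. Reads of this transcript, of a Kif26b messenger or intron and of an RNA on the other strand therefore cannot be told apart.

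The sequence of the transcript itself was not used here. The annotated start of Kif26b is shown because it is the gene whose name the transcript carries, and these counts do not bear on how far the transcript lies from it. It is the promoter window of RefSeq on GRCr8, chr13:92815177-92815476, plus strand, from 250 bases before the start to 50 bases after it. These coordinates belong to another build than those of the table. Capitals mark the 2 matches to the GC box, searched as GGGCGG and as CCGCCC on the other strand.
Kif26b promoter: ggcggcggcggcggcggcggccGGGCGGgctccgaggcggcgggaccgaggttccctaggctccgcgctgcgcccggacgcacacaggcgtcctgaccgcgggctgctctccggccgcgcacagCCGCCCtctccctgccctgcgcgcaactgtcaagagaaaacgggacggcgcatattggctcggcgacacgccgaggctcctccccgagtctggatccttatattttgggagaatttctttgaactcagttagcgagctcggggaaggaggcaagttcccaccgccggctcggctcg
This window was 69.7% G and C with 40 CpG dinucleotides, against medians of 51.7% and 7 over 33469 rat promoter windows. The GC box letters were present in 33.1% of all windows. The TATA box letters TATAAA, or TTTATA on the other strand, were not in the Kif26b window and were present in 14.2% of all windows.

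The 6 libraries held 3285614 to 3865088 counts over the lncRNA transcripts, with means of 3508000 in ARM and 3698000 in normal libraries (two-sided exact permutation p = 0.4). A transcript with no count in a library can still be present at up to 3 counts there, or 0.776 to 0.913 CPM (the count scaled to the library's size). Intervals and floors here cover counting error only.

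The Kif26b locus transcript was 3.46-fold more abundant in ARM than in normal cord. Its counts were 875, 925 and 991 in the ARM libraries and 246, 271 and 307 in the normal libraries. After scaling these were 267.1, 261.9 and 264.6 CPM in ARM and 73.0, 73.2 and 83.3 CPM in normal libraries. Every ARM library lay above every normal library, and the lowest ARM value was 3.15 times the highest normal value in CPM. Means were 264.5 ± 2.60 CPM in ARM and 76.5 ± 5.88 CPM in normal cord (SD, n = 3 each), a fitted log2 fold change of 1.79 (SE 0.12). No test of this difference is given, because it is the one that chose the transcript.

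Each value was well covered by counts. The 95% exact Poisson intervals were 249.7 to 285.4, 245.3 to 279.4 and 248.3 to 281.5 CPM in ARM libraries 1 to 3. In normal libraries 1 to 3 they were 64.2 to 82.7, 64.8 to 82.5 and 74.2 to 93.2 CPM. Counting alone gives an SD of 8.4 to 9.03 CPM for an ARM library and 4.45 to 4.75 CPM for a normal one. The SD of 2.60 CPM between ARM libraries is below that of counting, so it is no measure of biological spread. Among all 13343 tested transcripts, 16 (0.12%) passed the edgeR quasi-likelihood test at a Benjamini-Hochberg adjusted p under 0.05, 9 of them higher in ARM (0.0675%). Nothing is read from these shares for NONRATT009033.2, since the same contrast chose it.

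**Figure D1:**
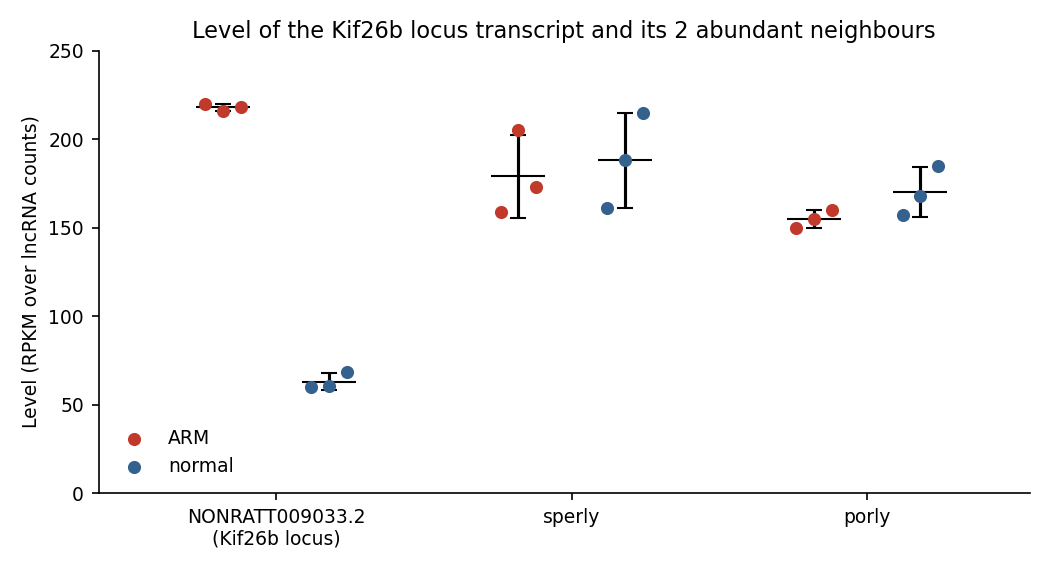
Level in RPKM over lncRNA counts (vertical axis) of NONRATT009033.2 and of its 2 abundant neighbours sperly and porly in 3 ARM (red) and 3 normal (blue) libraries; points are libraries, horizontal bars are means and error bars are SD. The Kif26b locus transcript was at 216 to 220.2 RPKM in ARM and 60.2 to 68.7 RPKM in normal libraries, while the groups of both neighbours overlapped.

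By level per length, the transcript was among the more abundant ones in either group. The measure used is RPKM, here the CPM over lncRNA counts divided by the transcript length in kilobases. Its mean of 218 RPKM in ARM ranked 456 of 22591 transcripts, and its mean of 63.1 RPKM in normal cord ranked 2275. The medians of the table were 7.56 RPKM in ARM and 7.25 RPKM in normal cord. The transcript therefore stood at or above 98.0% of the table in ARM and 89.9% of it in normal cord. Of the tested transcripts with an unspliced name 6 of 5999 (0.1%) passed the edgeR threshold, against 10 of 7344 others (0.136%). Their median log2 fold changes were 0.02 and 0.00.

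None of the tested transcripts within 500 kb passed the test. Of the 7 neighbours, 6 passed the filter on low counts. The edgeR threshold was passed by 0 of the 6, against 0.12% of all tested transcripts. DESeq2 and limma-voom also called 0 of the 6, against 0.345% of all tested transcripts with DESeq2 and 16 of 13343 with limma-voom. An unadjusted edgeR p under 0.05 was found for 0, a level that 5.98% of all tested transcripts reached. At such shares, 0 among 6 says little about these neighbours. Estimates were higher in ARM for 4 and lower for 2, with a range of -0.13 to 0.50 and a median of 0.14, against a median of 0.01 over all tested transcripts. The smallest edgeR adjusted p among them was 0.845.

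The nearest neighbours on the lower side are sperly and porly, both unspliced transcripts and both abundant. The transcript sperly (NONRATT009032.2), 2.9 kb away, had 427, 592 and 530 counts in ARM and 443, 570 and 649 counts in normal libraries. Its means were 146 ± 19.1 CPM in ARM and 154 ± 22.3 CPM in normal cord (SD, n = 3 each), and the groups overlapped. The log2 fold change was -0.07 (95% interval -0.46 to 0.32, edgeR adjusted p 0.963), with a sign that turned when 1 library was left out. The transcript porly (NONRATT009030.2), 4.3 kb away, had 948, 1058 and 1157 counts in ARM and 1022, 1201 and 1313 counts in normal libraries. Its means were 299 ± 9.72 CPM in ARM and 328 ± 26.7 CPM in normal cord (SD, n = 3 each), again with overlapping groups. Its log2 fold change was -0.13 (95% interval -0.39 to 0.13, edgeR adjusted p 0.893).

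The order of levels at the locus differed between the groups. As sperly and porly differed little between the groups, this restates the difference that chose NONRATT009033.2 and is a description only. In ARM, NONRATT009033.2 was the most abundant of the trio per length, at 218 ± 2.14 RPKM beside 179 ± 23.4 RPKM for sperly and 155 ± 5.04 RPKM for porly (SD, n = 3 each). It was above sperly by 1.38, 1.05 and 1.26 times in ARM libraries 1 to 3, and above porly by 1.47, 1.39 and 1.36 times. In normal cord it was the least abundant of the trio, at 63.1 ± 4.85 RPKM beside 188 ± 27.3 RPKM for sperly and 170 ± 13.8 RPKM for porly (SD, n = 3 each). There its ratio to sperly was 0.374, 0.321 and 0.319, and its ratio to porly was 0.383, 0.359 and 0.372. Within each group the means of sperly and porly differed by less than the sum of their SDs, so neither is set above the other. Of all scaled counts within 10 kb, NONRATT009033.2 took 38.7%, 35.8% and 36.7% in ARM and 14.2%, 13.2% and 13.5% in normal libraries.

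The other neighbours were rare, and their intervals were wide. On the upper side spawly (NONRATT009034.2), 3.2 kb away, had 12, 7 and 19 counts in ARM and 25, 6 and 5 counts in normal libraries. Its log2 fold change was 0.07 with a 95% interval of -1.61 to 1.75. The estimate rested on the normal library with 25 counts, and it was 1.23 without that library. The Ensembl transcript AABR07021888.1, 16.4 kb away, had 23, 23 and 40 counts in ARM and 25, 22 and 28 counts in normal libraries (log2 fold change 0.21, 95% interval -0.45 to 0.88). The transcript parly (NONRATT009035.2), 66.9 kb away, had 18, 21 and 21 counts in ARM and 15, 17 and 11 counts in normal libraries. It was the 1 tested neighbour of the 6 whose groups did not overlap in CPM, a separation shown by 11.9% of all tested transcripts. Its log2 fold change of 0.50 had a 95% interval of -0.14 to 1.14 (edgeR adjusted p 0.845). The transcript steely, 163 kb away, had 21, 16 and 17 counts in ARM and 17, 21 and 7 counts in normal libraries (log2 fold change 0.29, 95% interval -0.73 to 1.31). A transcript named for Efcab2, an EF-hand protein gene, had 3, 6 and 7 counts in ARM and 4, 3 and 5 counts in normal libraries and did not pass the filter. The estimates of spawly, AABR07021888.1 and steely changed sign when 1 library was left out.

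**Figure D2:**
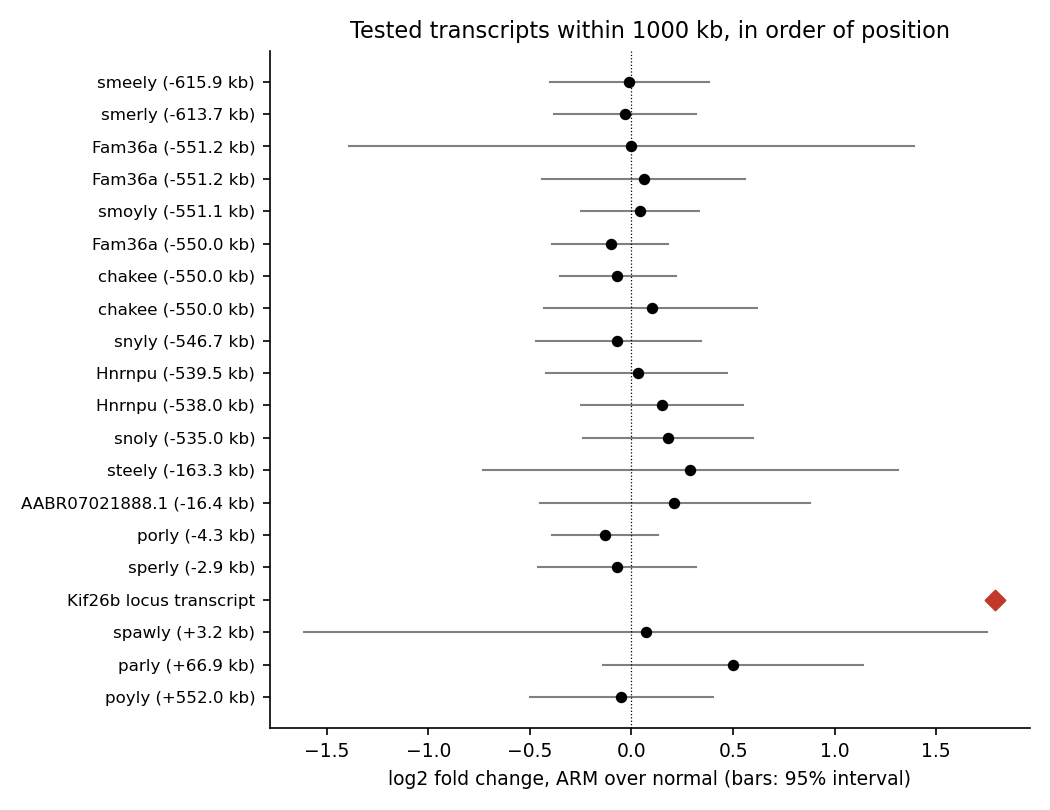
Log2 fold change, ARM over normal (horizontal axis), of each tested transcript within 1000 kb of NONRATT009033.2 (red diamond), from the lowest position at the top to the highest at the bottom, with the distance in kb beside each name; bars are 95% intervals. The diamond at 1.79 stands right of the other points, which run from -0.13 to 0.50.

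The summed level of the neighbours did not separate the groups. The 7 neighbours together had 443.3, 487.9 and 478.1 CPM in ARM and 460.2, 497.2 and 547.5 CPM in normal libraries. The groups overlapped, with means of 469.8 ± 23.5 CPM in ARM and 501.6 ± 43.8 CPM in normal cord (SD, n = 3 each; two-sided exact permutation p = 0.4, where 0.1 is the smallest possible). Of these means, 449.4 CPM in ARM and 485.3 CPM in normal cord lay within 10 kb, mostly at sperly and porly. The sum therefore mainly repeats these neighbours. Just outside the 500 kb limit lay snoly at 535 kb below, with a log2 fold change of 0.18, and poyly at 552 kb above, with -0.05. Farther below were transcripts named for Hnrnpu, which encodes a nuclear RNA-binding protein, at 0.03 and 0.15. Transcripts named Fam36a, an older name of the cytochrome c oxidase assembly gene Cox20, were at -0.10, 0.00 and 0.06. Within 1000 kb 24 other transcripts were listed and 19 tested, of which edgeR, DESeq2 and limma-voom called 0. An unadjusted edgeR p under 0.05 was also found for 0. Over all tested transcripts the shares were 0.12% with edgeR, 0.345% with DESeq2 and 5.98% at the unadjusted level, and limma-voom called 16 of 13343. At such shares, 0 among 19 says little about these transcripts.

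Transcripts at other kinesin genes did not pass the test. Of 44 kinesin motor, light chain and adaptor genes listed, 21 had a noncoding transcript in the table, 37 transcripts in all. EdgeR called 0 of the 23 tested, as did DESeq2 and limma-voom. Over all tested transcripts the shares were 0.12% with edgeR and 0.345% with DESeq2, and limma-voom called 16 of 13343. At such shares, 0 among 23 says little about these genes. An unadjusted edgeR p under 0.05 was found for 1, a level reached by 5.98% of all tested transcripts. The groups did not overlap in CPM for 4 of the 23, against 11.9% of all tested transcripts. Their median log2 fold change was 0.13, with 15 estimates above 0 and 8 below. The most abundant was at Klc1, a light chain that ties kinesin to its cargo, with 1957, 2865 and 2654 counts in ARM and 2510, 1613 and 2922 counts in normal libraries. Its groups overlapped, with means of 706 ± 107 CPM in ARM and 658 ± 194 CPM in normal cord (SD, n = 3 each; log2 fold change 0.10, SE 0.24). Next came Kif2a, a kinesin that takes microtubules apart, with 262, 305 and 330 counts in ARM and 249, 299 and 345 counts in normal libraries (log2 fold change 0.04, 95% interval -0.29 to 0.36). Both estimates changed sign when 1 library was left out.

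Some kinesin transcripts were named after their values were seen. A transcript at Kif1c, a vesicle-transporting kinesin, was the one with an unadjusted edgeR p under 0.05. It had 24, 36 and 29 counts in ARM and 18, 16 and 18 counts in normal libraries (log2 fold change 0.79, SE 0.25, edgeR adjusted p 0.832). It is 1 of the 4 whose groups did not overlap, all with ARM above normal. The other members of the 4 were a transcript at the light chain gene Klc2, with a log2 fold change of 0.64, and a pair at the minus-end-directed kinesin gene Kifc3, with 0.63 and 0.42. Groups overlapped for the other tested transcripts at these genes, with 0, 0.47 and 0.38 at Kifc3, -0.29 at Klc2 and 0.86 at Kif1c. Kif26a, the closest relative of Kif26b, had 2, 3 and 2 counts in ARM and 2, 2 and 2 counts in normal libraries, too few to be tested. A second Klc1 transcript, NONRATT024688.2, had 11, 14 and 23 counts in ARM and 1, 616 and 1 counts in normal libraries. Its log2 fold change of -3.62 (SE 1.95) rested on that 1 normal library.

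Few genes of the noncanonical Wnt pathway had noncoding transcripts in the table. Of 32 genes listed 9 did, with 18 transcripts, and Wnt5a, Ror1 and Ror2 were not among them. EdgeR, DESeq2 and limma-voom called 0 of the 14 tested, and 0 had an unadjusted edgeR p under 0.05. Over all tested transcripts the shares were 0.12% with edgeR, 0.345% with DESeq2 and 5.98% at the unadjusted level, and limma-voom called 16 of 13343. At such shares, 0 among 14 says little about these genes. The median log2 fold change was 0.19, with 11 estimates above 0 and 3 below, against 51.5% above 0 among all tested transcripts. The most abundant was at Dact1, which binds Dishevelled, with 432, 546 and 458 counts in ARM and 360, 400 and 502 counts in normal libraries. The groups overlapped in CPM (136 ± 16.6 in ARM and 117 ± 16.6 in normal cord, SD, n = 3 each), with a log2 fold change of 0.22 (95% interval -0.16 to 0.60). The next, at the formin gene Daam2, had 118, 118 and 111 counts in ARM and 94, 99 and 145 counts in normal libraries (log2 fold change 0.08, SE 0.20, with a sign that turned without 1 library). The highest estimate, 1.76, belonged to a transcript at Daam1, a formin of the same family named after its values were seen. It had 2, 47 and 88 counts in ARM and 3, 3 and 34 counts in normal libraries, so its groups overlapped.

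Genes of early kidney formation, where Kif26b is best known, were thinly covered. Of 20 listed 7 had a transcript in the table and 2 transcripts were tested. At Ret, the receptor for GDNF in the ureteric bud, there were 56, 64 and 75 counts in ARM and 57, 57 and 95 counts in normal libraries (log2 fold change -0.07, 95% interval -0.64 to 0.50, sign turned without 1 library). At the transcription factor gene Pax8 there were 29, 45 and 38 counts in ARM and 28, 35 and 30 counts in normal libraries (log2 fold change 0.29, 95% interval -0.24 to 0.83). EdgeR, DESeq2 and limma-voom called neither, and 0 had an unadjusted edgeR p under 0.05. Over all tested transcripts the shares were 0.12% with edgeR, 0.345% with DESeq2 and 5.98% at the unadjusted level, and limma-voom called 16 of 13343. With 2 transcripts tested, nothing is read from these counts. Sall1 was not among the loci in the table, and the transcript at Itga8, an integrin gene of the metanephric mesenchyme, had 1 count in every library.

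In the list of actomyosin and adhesion genes, 10 of 15 had a transcript in the table and 9 transcripts were tested. EdgeR and limma-voom called 0, against 0.12% of all tested transcripts with edgeR and 16 of 13343 with limma-voom. An unadjusted edgeR p under 0.05 was found for 1, a level that 5.98% of all tested transcripts reached. DESeq2 called 1 of the 9, against 46 (0.345%) of all tested transcripts. In both counts it is NONRATT019426.2 at Ctnnd1, which encodes the cadherin partner p120 catenin, with 11, 367 and 407 counts in ARM and 10, 12 and 12 counts in normal libraries. ARM libraries 2 and 3 were far above the rest, while ARM library 1 was close to the normal ones (log2 fold change 4.50, SE 1.14, edgeR adjusted p 0.832). DESeq2 gave an adjusted p of 0.041, and edgeR without ARM replicate 1 an adjusted p of 0.0012, within a range of 0.0012 to 0.981 over 12 alternatives. Next by level was Ptk2, the focal adhesion kinase gene, with 103, 59 and 83 counts in ARM and 88, 99 and 84 counts in normal libraries (log2 fold change -0.11, SE 0.25, sign turned without 1 library). The median of the 9 was -0.07, with 3 estimates above 0 and 6 below.

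**Figure D3:**
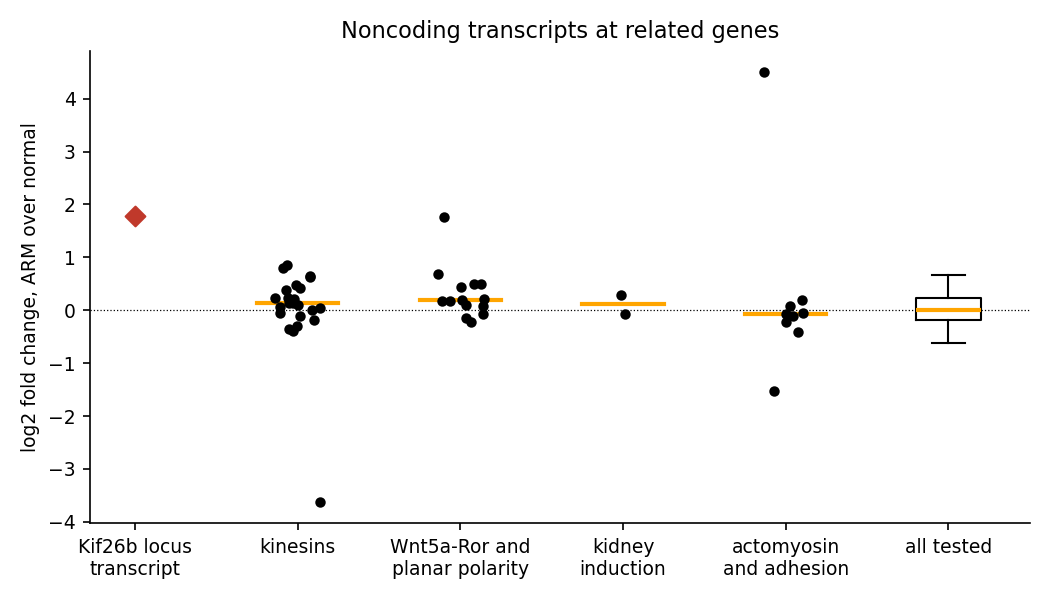
Log2 fold change, ARM over normal (vertical axis), of NONRATT009033.2 (red diamond), of tested transcripts in 4 gene lists (points, with the median as an orange line) and of all 13343 tested transcripts (box from the lower to the upper quartile, whiskers at percentiles 5 and 95). List medians were 0.13, 0.19, 0.11 and -0.07 from left to right, beside 1.79 for the Kif26b locus transcript and 0.01 for all tested transcripts.

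Noncoding transcripts at marker genes were summed as a description of the labelled tissue. Of 22 neural genes listed 11 had transcripts in the table, which summed to 31500 to 33700 CPM in ARM and 25000 to 29600 CPM in normal libraries. These groups did not overlap, a separation that 11.9% of all tested transcripts showed singly. The largest part was a transcript of the lncRNA Meg3, at means of 15200 CPM in ARM and 13200 CPM in normal cord. Nothing is read from this sum about the amount of neural RNA. Skeletal muscle transcripts (3 of 12 genes) summed to 1.42 to 2.14 CPM in ARM and 0 to 0.89 CPM in normal libraries, which also did not overlap, at levels near the floor. Their highest, at Myog, averaged 1.05 CPM in ARM and 0.0904 CPM in normal cord. Cartilage transcripts (3 of 10 genes) summed to 11.7 to 54.6 CPM in ARM and 1.08 to 19.0 CPM in normal libraries. These cartilage sums overlapped between the groups, and their highest level was at Col2a1. The part of these neural, muscle and cartilage levels in the difference at the Kif26b locus was not tested.

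As for cartilage, the sums of the remaining marker lists overlapped between the groups. Mesenchyme transcripts (5 of 14 genes) summed to 65.7 to 81.8 CPM in ARM and 66.5 to 92.3 CPM in normal libraries, led by Postn. Transcripts at sensory ganglion genes (6 of 16) summed to 550 to 614 CPM in ARM and 438 to 590 CPM in normal libraries. They were led by an unspliced transcript at Pou4f1, which encodes a POU-domain protein, at means of 482 CPM in ARM and 461 CPM in normal cord. That transcript supplied most of the sum, so the sum does not show whether ganglion tissue was present. Endothelial transcripts (3 of 8 genes) summed to 24.9 to 32.0 CPM in ARM and 26.7 to 35.8 CPM in normal libraries. Blood transcripts (3 of 9 genes) summed to 4.27 to 5.61 CPM in ARM and 4.75 to 11.9 CPM in normal libraries. No listed transcript was at 0 in all libraries, and markers without a noncoding transcript in the table were not measured.

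Of the 36 tested transcripts in the 7 marker lists, edgeR called 1, a second transcript at Pou4f1, against 0.12% of all tested transcripts. It is NONRATT011163.2, with 163, 216 and 184 counts in ARM and 11, 5 and 18 counts in normal libraries. The groups did not overlap, at 53.3 ± 6.78 CPM in ARM and 3.17 ± 1.77 CPM in normal cord (SD, n = 3 each; log2 fold change 4.06, SE 0.40, edgeR adjusted p 0.0281). The adjusted p ran from 1.38e-22 to 0.126 over 12 alternatives and stayed under 0.05 in 6 of them. It was 0.0604, 0.104 and 0.0971 without ARM replicates 1 to 3 and 0.112 without normal replicate 1. This transcript overlaps the unspliced one at Pou4f1, and the counting could split reads between them. With the counts of both summed, the log2 fold change was 0.18 (edgeR adjusted p 0.849). The unspliced transcript, at means of 482 and 461 CPM with a log2 fold change of 0.06, dominates this sum. The sum therefore cannot show whether reads were split, which was not tested. The part of the levels of this list in the difference at the Kif26b locus was not tested either.

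The 5 transcripts with the profile most like that of NONRATT009033.2 were found by Pearson's r of log2(CPM + 1) over the 6 libraries, among 8078 tested transcripts with a mean of at least 10 CPM. With 2 groups of libraries, a high r mainly means that a transcript separates the groups in the same direction, and it is given as a description only. They lie on chromosomes 3, 2, 10, 4 and 18, and none lies near Kif26b. The transcripts plochy (r = 0.9973) and veyshee (r = 0.9970) averaged 57.9 ± 5.30 and 36.8 ± 4.36 CPM in ARM (SD, n = 3 each) and had 0 counts in every normal library. The transcript sharza (r = 0.9928), unspliced like NONRATT009033.2, had 779, 1067 and 949 counts in ARM and 101, 141 and 179 counts in normal libraries. It reached a similar level in ARM, 203 ± 25.7 RPKM, and had 29.8 ± 7.15 RPKM in normal cord (SD, n = 3 each). Both plochy and veyshee passed the filter on low counts through the ARM libraries alone. The 5 were picked for likeness to a profile that was itself chosen for its difference, so no test of them is given.

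The remaining pair was detected in all 6 libraries. NONRATT005249.2 (r = 0.9932) averaged 14.7 ± 0.541 CPM in ARM and 9.20 ± 0.496 CPM in normal cord (SD, n = 3 each; log2 fold change 0.67). A transcript at Ammecr1l (r = 0.9905), a gene of unclear function, had 61, 58 and 59 counts in ARM and 26, 30 and 31 counts in normal libraries. It averaged 10.7 ± 0.95 RPKM in ARM and 5.11 ± 0.221 RPKM in normal cord (SD, n = 3 each; log2 fold change 1.06, SE 0.18). In both transcripts every ARM library lay above every normal one. An r of at least 0.95 was reached by 32 transcripts.

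**Figure D4:**
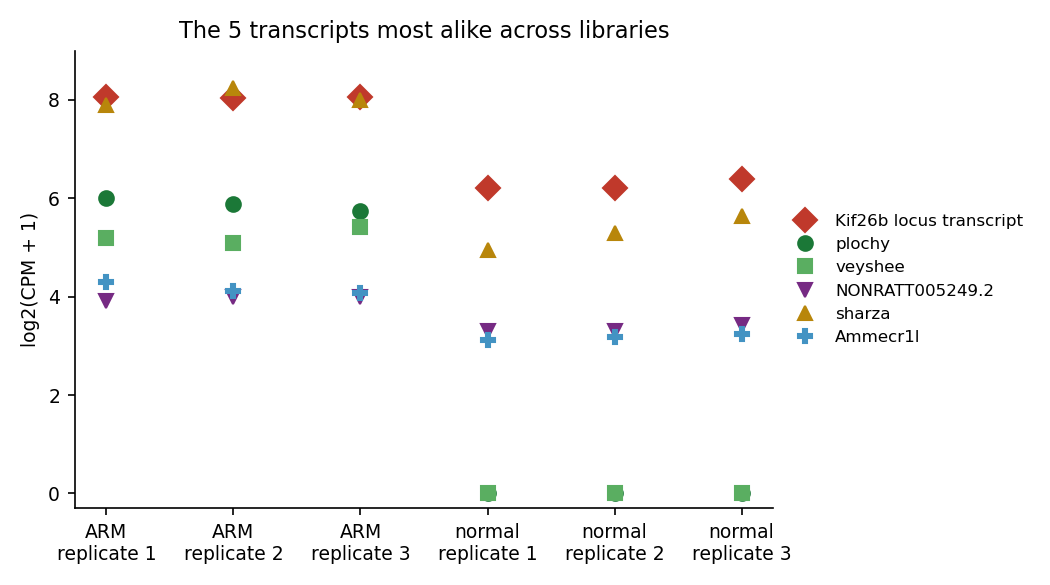
Level as log2(CPM + 1) (vertical axis) in the 3 ARM and 3 normal libraries for NONRATT009033.2 (red diamonds) and the 5 transcripts with the highest Pearson r to it. All 6 are higher in each ARM library than in any normal one, and plochy and veyshee are at 0 in the normal libraries.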

How the data were processed

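Long noncoding RNA was measured in 6 libraries, and the miRNA libraries of the series were not used. Per the file headers, the deposited table holds raw counts per transcript, with lengths and coordinates. Its FPKM columns (6) were not used, and every level here is scaled to the lncRNA counts alone. For the authors' pipeline, the submitters' processing notes list TopHat2 2.0.9, Cufflinks 2.1.1, Cuffdiff and CASAVA 1.8 without saying what each did, and the mouse build mm10, whereas this is a rat table. Neither the counting tool and its strand setting nor a rat build is named. The ARM columns carry the replicate numbers of the labels. The normal headings read N9 where the labels read N19, so they were matched to the group alone, and their numbers serve as names. Of 22591 transcripts, 8253 had a current RefSeq symbol (GRCr8).

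In R 4.3.3, edgeR 4.0.16 was run on all transcripts that its default expression filter kept (13343), with TMM scaling, phenotype as the one term, quasi-likelihood F tests and Benjamini-Hochberg adjustment over the 13343 (threshold 0.05). CPM is TMM-scaled, RPKM is that CPM per kilobase, and SE is |log2 fold change| divided by the root of F. The edgeR fit alone was run on simulated counts with a dispersion shared by all transcripts. That run does not cover transcripts of unequal spread, nor the window, sum, list and profile steps. The transcript and the lists were chosen with earlier results of these data known. Named were every transcript within 500 kb, from each pathway list those past the threshold or else the 2 with the highest mean, from marker lists the sums and highest members, and the 5 most alike in profile. Any others were picked by their values. The alternatives tried were limma-voom (limma 3.58.1), DESeq2 1.42.0, edgeR with the size factors of DESeq2 or with library totals alone, other filters, windows of 250 and 1000 kb, a threshold of 0.1, summing of overlapping transcripts, and fits without 1 library.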

Additional observations from a re-analysis of the deposited data

How the results depend on the processing

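The log2 fold change of the Kif26b locus transcript stayed between 1.74 (without normal replicate 1) and 1.85 (without normal replicate 3) when 1 library was left out, and was 1.77 to 1.83 under the other alternatives. The number of transcripts called within 500 kb was 0 under every alternative run, including windows of 250 and 1000 kb. Summed neighbour levels kept a lower estimate in ARM (log2 ratio -0.15 to -0.03 with 1 library left out). Without normal replicate 1 (log2 ratio -0.15) every ARM sum lay below every normal one, with a two-sided exact permutation p of 0.1. The number called over all transcripts was 46 with DESeq2, 9 with no filter and 8 with a minimum mean of 10 CPM, against 16, and 19 to 29 with 1 library left out (29 without ARM replicate 1). DESeq2 called 1 transcript of the actomyosin and adhesion list, and leaving out 1 library gave 0 to 1 (1 without ARM replicate 1). The cause was not tested. With 1 library left out, the log2 fold change turned its sign for sperly (-0.19 to 0.04), spawly (-0.32 to 1.23), AABR07021888.1 (-0.05 to 0.34), steely (-0.06 to 0.57), Klc1 (-0.13 to 0.26), Kif2a (-0.06 to 0.13), Daam2 (-0.03 to 0.27), Ret (-0.22 to 0.19) and Ptk2 (-0.37 to 0.08). With a pseudocount of 0.1 the 5 most alike transcripts were the same 5. No paired analysis was possible because no label pairs an ARM sample with a normal one. The headings of the normal columns also do not tie them to numbered samples. The Pou4f1 transcript NONRATT011163.2 stayed at 3.69 to 4.52, and its adjusted p was 0.126 with no filter and 0.0558 with a minimum mean of 10 CPM.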

Other observations

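Several transcripts at motor and adhesion genes were high in some libraries and near 0 in others of the same group; they were chosen after their values were seen. A transcript at Kif13a, NONRATT012845.2, had 4, 2 and 4 counts in ARM and 100, 2 and 2 counts in normal libraries. At Myh9, the nonmuscle myosin heavy chain gene, the counts were 73, 134 and 0 in ARM and 95, 0 and 126 in normal libraries. At Myl9, a myosin light chain gene, they were 58, 0 and 11 in ARM and 33, 61 and 119 in normal libraries.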
